A study of Salmo salar with 16 samples.

Results

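The probe C187R103 is 1 of 43689 non-control features on a salmonid oligonucleotide array, and the study annotated it as the tetraspan gene lhpl4. In the RefSeq annotation of the salmon assembly Ssal_v3.1, lhpl4 is a synonym of lhfpl4b, and lhfpl4a is listed there as a separate gene. Whether RNA of lhfpl4a also binds the probe was not tested. The probe was chosen by 2 sets of values, namely the log2 ratios of the 8 fish on slides 3 and 4, on which the rank products analysis of the study listed it as higher in high ω6 fish, and the spread of all 16 livers into high and low fish. The difference on slides 3 and 4 and the split into high and low fish are therefore given as descriptions with no test. The tests between diets on slides 1 and 2 and between slides also use values of this spread, and their limits are stated there. Slides are numbered 1 to 4 here in the order of their slide numbers in the files.

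LHFPL4 proteins cross the cell membrane 4 times and belong to a tetraspan family. In mouse and rat, LHFPL4 binds GABA-A receptors, the chloride channels opened by the inhibitory transmitter GABA, and it links them to the adhesion protein neuroligin-2 at inhibitory synapses. The protein is best known from the brain, and a role in fish liver is not assumed here.

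The tested fish were juvenile Atlantic salmon (Salmo salar) post-smolts fed a high ω6 diet for 12 weeks, and they were compared with fish of the same stage fed a high ω3 diet for 12 weeks. Both diets held the same marine and plant proteins and differed in their mix of linseed, soy and palm oils. Each diet was fed to 4 tanks, and 2 fish per tank gave 8 fish per diet. All were taken from fish with a weight gain near the mean of their own tank, so the most and least grown fish of a tank are not represented. Cy5-labelled liver RNA of 1 fish was hybridized on each array against a Cy3-labelled pool of all 16 RNAs, and each of the 4 slides held 2 fish per diet. A log2 ratio of 0 stands for the level of the pool after normalization, which sets the typical ratio of spots of like brightness on an array to 0. All fish were labelled with Cy5, so an effect of the label on this probe cannot be told apart from its level.

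The lhpl4 spot was unflagged and not marked as saturated on all 16 arrays, and between 21202 and 41311 spots per array were unflagged in all. Its highest Cy5 signals were 62518 in high ω6 fish 7 and 61995 in high ω3 fish 7, and saturation of part of their pixels was not tested. The array of high ω6 fish 4 stood apart from the others, with an SD of 1.48 for the log2 ratios over its probes, compared with 0.59 to 0.78 on the other 15 arrays. Where a main difference between diets or slides rests on this array, its value without it is given as well. Probes carry no gene names in the files, so the liver label could not be checked against marker genes.

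In the high ω6 fish, the log2 ratio of lhpl4 was 1.14, 0.97, 0.94, −2.70, 0.58, −0.14, 0.70 and 0.89 in fish 1 to 8. In the high ω3 fish, it was −2.01, 0.23, −0.24, −2.72, −1.63, 0.64, 1.14 and 0.71 in fish 1 to 8. Of the 16 fish, 4 were far below the rest, namely high ω6 fish 4 and high ω3 fish 1, 4 and 5. On a linear scale, these 4 livers were at 0.154, 0.248, 0.152 and 0.323 of the level of the pool, whereas the other 12 were between 0.848 and 2.20. The mean ratio over all fish was 1.26 ± 0.73 (SD, n = 16), above the level of the pool although the pool was made from these fish. Ratios to the pool may thus carry a shared offset, which was not tested. Since whole liver was sampled, fewer cells that carry this RNA and less of it per cell cannot be told apart.

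**Figure D1:**
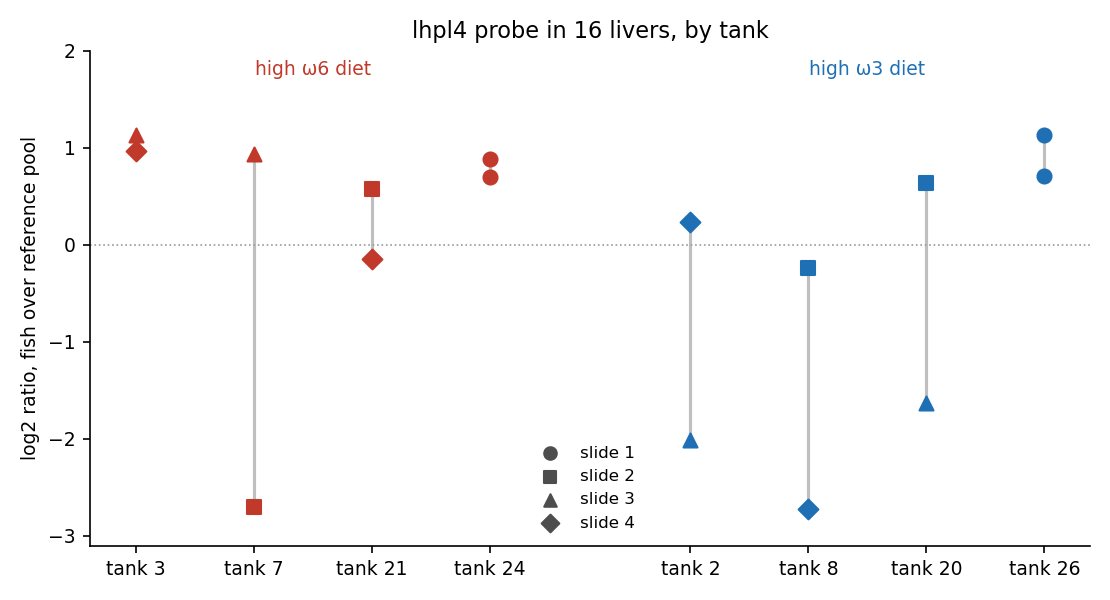
Log2 ratio of the lhpl4 probe (fish over reference pool, vertical axis) in 16 livers, by tank (horizontal axis), with the 4 high ω6 tanks at left and the 4 high ω3 tanks at right. Each point is 1 fish, its shape gives the slide and a grey line joins the 2 fish of a tank. The 4 points from −2.72 to −1.63 come from 4 different tanks.

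Ordered from low to high, the values of the 4 low fish ran from −2.72 to −1.63, and the next fish was at −0.24. This gap of 1.39, a 2.62-fold step, was the widest space between neighbouring fish with at least 3 fish on either side. Within the 4 low fish, the widest step was 0.69, between −2.70 in high ω6 fish 4 and −2.01 in high ω3 fish 1. Among the other 12 fish, neighbours differed by at most 0.38, and the upper 9 of them, from 0.58 to 1.14, formed a close row that held 6 high ω6 fish and 3 high ω3 fish. High ω3 fish 3 (−0.24) and high ω6 fish 6 (−0.14) lay just above the gap, and high ω3 fish 5 (−1.63) lay just below it. The highest fish of the 2 diets were equal to 2 decimals, at 1.14 in high ω6 fish 1 and 1.14 in high ω3 fish 7.

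A gap of this width was uncommon on the array, but the probe was chosen by this spread. A wide gap is thus favoured by the choice. Of the 7961 probes that were unflagged on all 16 arrays, 27 (0.339%), lhpl4 included, had an inner gap at least as wide, up to 2.33. The median over the 7961 probes was 0.30. In the other 26 probes, the gap set apart 3 fish in 12 probes, 4 fish in 6 probes and 5 to 8 fish in 8 probes. High ω6 fish 4, with its wide array, was on the smaller side in 13 of these 26. None of these 26 had a gap that parted the same 4 fish from the rest. The 4 fish are defined by the gap of lhpl4, so its own match is by construction. With no limit on width, the widest inner gap of 9 other probes parted the same 4 fish, with the 4 low in 8 probes and high in C038R141, which is named here after its values were seen.

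**Figure D2:**
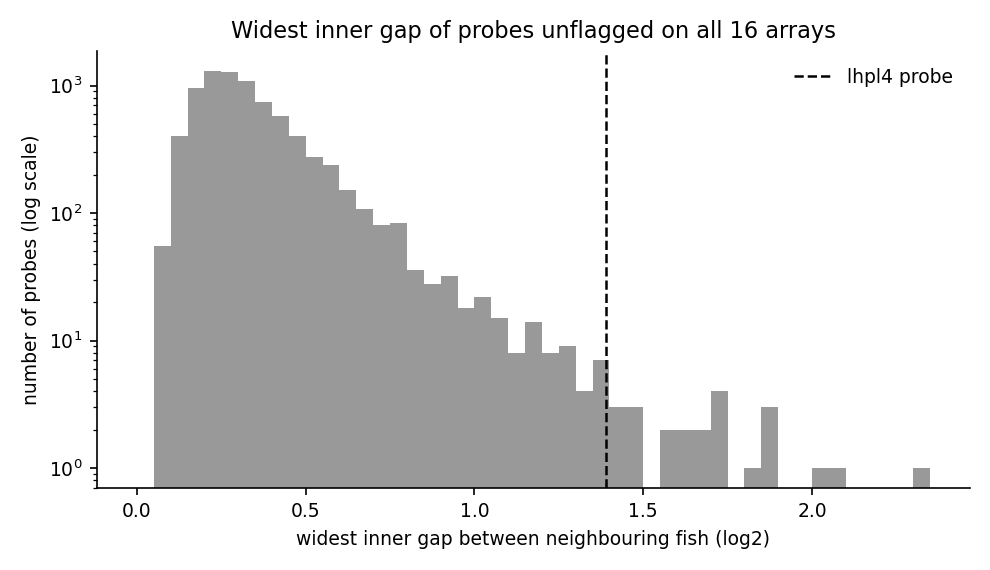
Distribution of the widest inner gap between neighbouring fish (log2, horizontal axis) over the 7961 probes unflagged on all 16 arrays (number of probes on a log scale, vertical axis). The dashed line marks lhpl4 at 1.39, which 0.339% of the probes reached, against a median of 0.30.

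The spread of lhpl4 over the 16 fish, by which the probe was chosen, was large, with an SD of 1.37 (1.23 without high ω6 fish 4). A split into high and low fish brings a large SD with it, so the SD is not a separate result. Of the 25061 probes unflagged on at least 12 arrays, 2.50% had an SD at least as large, and the median SD was 0.59. The SD within a diet was 1.27 in the high ω6 fish and 1.44 in the high ω3 fish (n = 8 each).

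Low fish were found on both diets. This was also not particular to lhpl4, since in all but 1 of the 26 other probes with a gap as wide the smaller side held both diets. The fish with low lhpl4 were 1 of 8 high ω6 fish and 3 of 8 high ω3 fish, and the array of the 1 low high ω6 fish was the one that stood apart. Over all fish, the mean log2 ratio was 0.30 ± 1.27 on the high ω6 diet and −0.48 ± 1.44 on the high ω3 diet (SD, n = 8 each). The difference of 0.78 was smaller than either SD. It was 1.21 without high ω6 fish 4 and 0.46 without high ω3 fish 4, the highest and the lowest values when 1 fish was left out. The medians were 0.79 on the high ω6 diet and −0.0033 on the high ω3 diet.

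On slides 3 and 4, whose values chose the probe, the log2 ratio was 0.72 ± 0.59 in the high ω6 fish and −1.53 ± 1.26 in the high ω3 fish (SD, n = 4 each), a difference of 2.26 or 4.78-fold. These 8 fish included 3 of the 4 low fish, all of them fed the high ω3 diet. The remaining high ω3 fish there, fish 2 at 0.23, was inside the high ω6 range of −0.14 to 1.14.

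The list that held lhpl4 was made without slides 1 and 2, and the diets were compared on these 2 slides with a test. The study removed slide 1 after no gene was called with it. It listed lhpl4 from slides 3 and 4, not from its analysis of slides 2, 3 and 4. A weak difference on slides 1 and 2 is thus favoured by the way the probe was listed. The values of the fish on slides 1 and 2 are also part of the spread over 16 livers by which the probe was chosen. That choice did not use diet. This test is therefore not independent of the choice of the probe. The 4 high ω6 fish were at −2.70, 0.58, 0.70 and 0.89, and the 4 high ω3 fish were at −0.24, 0.64, 1.14 and 0.71. Apart from high ω6 fish 4, the values of the diets overlapped. The means were −0.13 ± 1.71 in the high ω6 fish and 0.56 ± 0.58 in the high ω3 fish (SD, n = 4 each), and the difference of −0.70 (limma standard error 0.73) was within the spread between fish (two-sided exact permutation test, p = 0.600, where 4 fish per diet allow no p under 0.0286). In limma, 0 of 24969 probes (0%) passed an adjusted p of 0.10 in these fish, and the adjusted p of lhpl4 was 0.999. At an unadjusted p under 0.05 were 579 probes, a smaller share than the 0.05 expected with no difference. Without high ω6 fish 4, the difference was 0.16 (exact permutation test, p = 0.83), so its direction rested on that fish. With tank means in place of single fish, it was −0.89 (exact permutation test over 3 tanks per diet, p = 0.600, where no p under 0.100 is possible). The p over fish do not take into account that both fish of a tank may share its conditions.

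Slide by slide (n = 2 fish per diet on each), the mean difference (high ω6 minus high ω3) was −0.13 on slide 1 and −1.26 on slide 2. In contrast, it was 2.86 on slide 3 and 1.66 on slide 4. The value of slide 2 rested on high ω6 fish 4, and without this fish, a comparison chosen after the values were seen, it was 0.38, with 0.58 in the remaining high ω6 fish and a mean of 0.20 in the high ω3 fish. The low fish were spread over 3 slides, 1 of 4 fish on the second, 2 of 4 on the third and 1 of 4 on the fourth slide. On slide 1, none of 4 fish was low, and its values of 0.70, 0.89, 1.14 and 0.71 were among the upper 9 of all fish. These 4 fish are also all the fish of tanks 24 and 26, so slide 1 and these tanks cannot be told apart. The study had left this slide out for its background. The mean of slide 1 was 0.86 ± 0.20, and those of slides 2, 3 and 4 were −0.43 ± 1.56, −0.39 ± 1.66 and −0.42 ± 1.60 (SD, n = 4 each). Without high ω6 fish 4, the mean of slide 2 was 0.33 ± 0.49 (SD, n = 3). With diet in the model, 211 of 24916 probes (0.847%) passed an adjusted p of 0.10 between slides in limma. A total of 3678 probes had an unadjusted p under 0.05. The F of lhpl4 between slides was 1.15 in limma (adjusted p = 0.672). This F uses all 16 values, whose spread chose the probe and enters the residual, so it does not show that the slides were alike. It was 2.16 without high ω6 fish 4, 0.56 without high ω3 fish 7 and 0.71 without high ω3 fish 8, with an adjusted p in limma of 0.424 to 0.848 over the 16 fish left out in turn. When arrays were centred on their medians and loess was left out, F was 3.75 with an adjusted p of 0.0838 in limma. Lhpl4 was then 1 of 8932 probes, of 24916, that passed this threshold.

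Each of the 4 low fish came from a different tank, and its tank mate was never low. This was not particular to lhpl4. In 11 of the 26 other probes with a gap as wide, the fish on the smaller side also came from different tanks. The smaller side was 3 fish in most of these 11 and 4 fish in the rest, so most were smaller sets than that of lhpl4. In tank 7 (high ω6), the 2 fish were at −2.70 and 0.94, a difference of 3.64. In the high ω3 tanks, tank mates were at −2.01 and 0.23 in tank 2, at −2.72 and −0.24 in tank 8, and at −1.63 and 0.64 in tank 20, so that each pair differed by 2.25 to 2.48. Tank mates in the remaining 4 tanks differed by 0.17 in tank 3, 0.72 in tank 21 and 0.19 in tank 24, all high ω6, and by 0.42 in tank 26, which was high ω3. In the order of the tank means, tank 3 was at 1.05, tank 26 at 0.92, tank 24 at 0.79, tank 21 at 0.22, tank 20 at −0.49, tank 7 at −0.88, tank 2 at −0.89 and tank 8 at −1.48. Neighbours in this order differed by less than the fish within tanks 2, 7, 8 and 20. However, steps in a sorted order are small by construction, and these 4 tanks are the ones that held a low fish. Of the sum of squares of lhpl4 over the 16 fish, 53.6% lay between tank mates, compared with a median of 43.7% over the 7961 probes, and 30.1% of these probes had a share at least as large. Tank mates lay on different slides in tanks 2, 3, 7, 8, 20 and 21, and on the same slide in tanks 24 and 26. Differences between tank mates on different slides, and this share, therefore mix fish with slide.

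The 4 low ratios came with a dim Cy5 signal. Before background correction, the Cy5 signal of the spot was 2053 in high ω6 fish 4 and 2542 (fish 1), 1210 (fish 4) and 1607 (fish 5) in the high ω3 fish, whereas in the other 12 fish it ranged from 8074 to 62518. These low signals were still 4.60 to 12.0 times the local background, and 17.8 to 92.6 times in the other fish. Intensities after background correction were also set against the median of the 7961 probes unflagged on all 16 arrays, taken on each array. On this log2 scale, Cy5 lay between −0.72 and 0.26 in the 4 low fish and between 1.86 and 4.41 in the other 12. The Cy3 intensity of the pool, which holds the same RNA on each array, ranged from 1.41 to 3.37 over the 16 arrays. Its values on the arrays of the low fish (1.47 to 2.11) lay in the lower part of this range. Among the other 12 fish, only the arrays of high ω3 fish 2 and high ω6 fish 6 had a Cy3 value below 2.11. The Cy3 signal of the spot was thus also on the dim side in the low fish, and the part of this in the split was not tested. The Cy5 channel spanned 5.12 over the 16 arrays on this scale, and the Cy3 channel spanned 1.96.

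**Figure D3:**
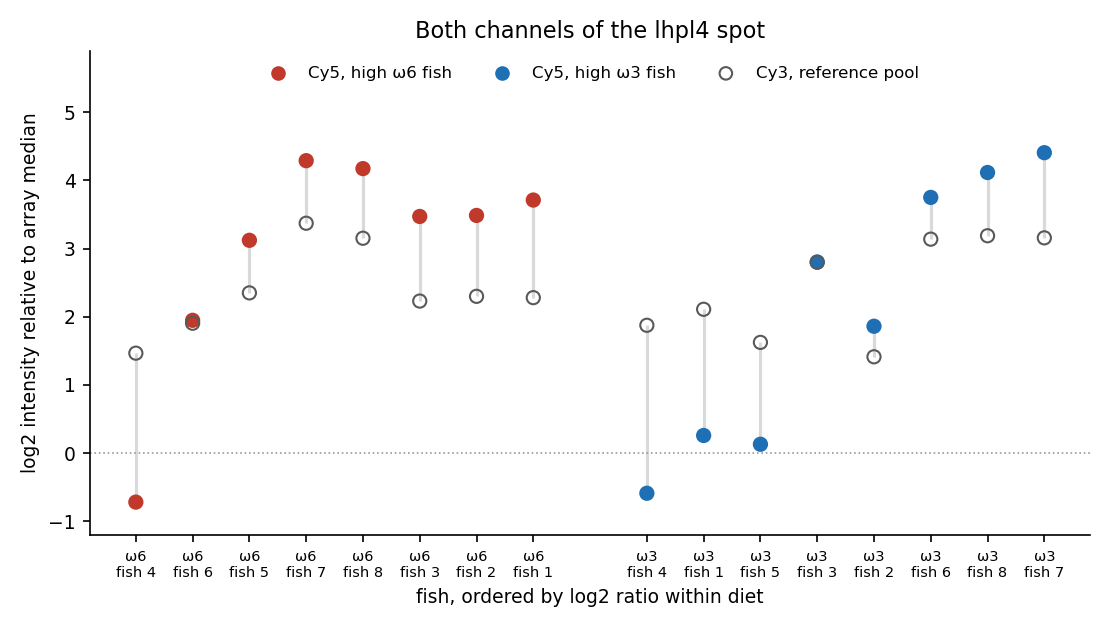
Background-corrected log2 intensity of the lhpl4 spot relative to a median of its array (vertical axis), taken over the 7961 probes unflagged on all 16 arrays. Cy5, the fish, is shown as filled points and Cy3, the pool, as open points. The 8 high ω6 fish are at left and the 8 high ω3 fish at right, ordered by log2 ratio within each diet. Filled points of the 4 low fish are at 0.26 or below and those of the other fish at 1.86 or above, while the open points lie between 1.41 and 3.37.

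Several measures of the spot and of the arrays were set beside this pattern. The SD of the Cy5 pixels within the spot was 73.2% to 78.7% of their mean in the 4 low fish and 43.8% to 66.2% in the other 12. The part of this in the low ratios was not tested. Within 2 rows and 2 columns of the lhpl4 spot lie 24 other spots, of which 7 to 23 were unflagged on an array. Their median log2 ratio ranged from −0.14 to 0.67 over the arrays, and on the arrays of the low fish it was 0.23 for high ω6 fish 4 and 0.03, −0.00082 and 0.0090 for high ω3 fish 1, 4 and 5. As a median, the surrounding spots were thus not low. The lowest single one was at −2.66 on the array of high ω6 fish 4 and at −1.29, −2.79 and −1.62 for high ω3 fish 1, 4 and 5. On the arrays of the other 12 fish, the lowest surrounding spot was between −2.52 and −0.34. A local effect on the lhpl4 spot was not tested. On the arrays of high ω3 fish 1, 4 and 5, only 0.689%, 0.425% and 2.50% of the kept probes had a lower log2 ratio than lhpl4. On the wide array of high ω6 fish 4, this was 5.49%.

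The spot was among the brighter ones on the array. In Cy5, its median signal over the 16 arrays was 20503, and a median of 97.4% of the unflagged spots of the same array were dimmer. In the high ω6 fish, this share was 67.8% to 99.9% with a median of 98.0%, and in the high ω3 fish it was 81.0% to 99.9% with a median of 95.0%. In the 4 low fish, 67.8%, 86.8%, 81.0% and 85.8% of the unflagged spots were dimmer (high ω6 fish 4 and high ω3 fish 1, 4 and 5). Even there, the spot was brighter than most unflagged spots of its array. In high ω6 fish 4 and high ω3 fish 4, it was nonetheless under the median of the probes unflagged on all 16 arrays (−0.72 and −0.59, log2). In the pool, 90.6% to 98.7% of the Cy3 spots were dimmer on each array. Brightness depends on the probe as well as on the amount of RNA, and these shares rank spots, not transcripts. In the study, lhpl4 was not measured by qPCR because its primers failed quality testing, so the array is the only measurement of this gene here.

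The 5 probes with the profile most like that of lhpl4 were found from the root mean square difference of log2 ratios over the 16 fish, after each probe was centred on its own mean. They have no gene names in the files. The closest was C175R165 with a difference of 0.69, followed by C104R102 (0.72), C161R167 (0.76), C177R058 (0.77) and C098R078 (0.80). A probe with the same value in every fish would differ from lhpl4 by 1.33, so the likeness was partial. Of 7960 other probes, 3310 were closer to lhpl4 than such a flat probe. C175R165 was at −2.46 in high ω6 fish 4 and at −1.03, −1.88 and −2.30 in high ω3 fish 1, 4 and 5, whereas the other 12 fish were between −0.80 and 0.98. Its values in the low lhpl4 fish did not overlap with those in the others, and this was also the case for C104R102 and C177R058. In C161R167 and C098R078 they overlapped. The 5 probes were picked by their likeness in these same 16 fish, so low values in the 4 low lhpl4 fish follow in part from the choice. Without high ω6 fish 4, which was the lowest fish in each of the 5 probes, the differences were 0.69, 0.70, 0.77, 0.79 and 0.82.

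**Figure D4:**
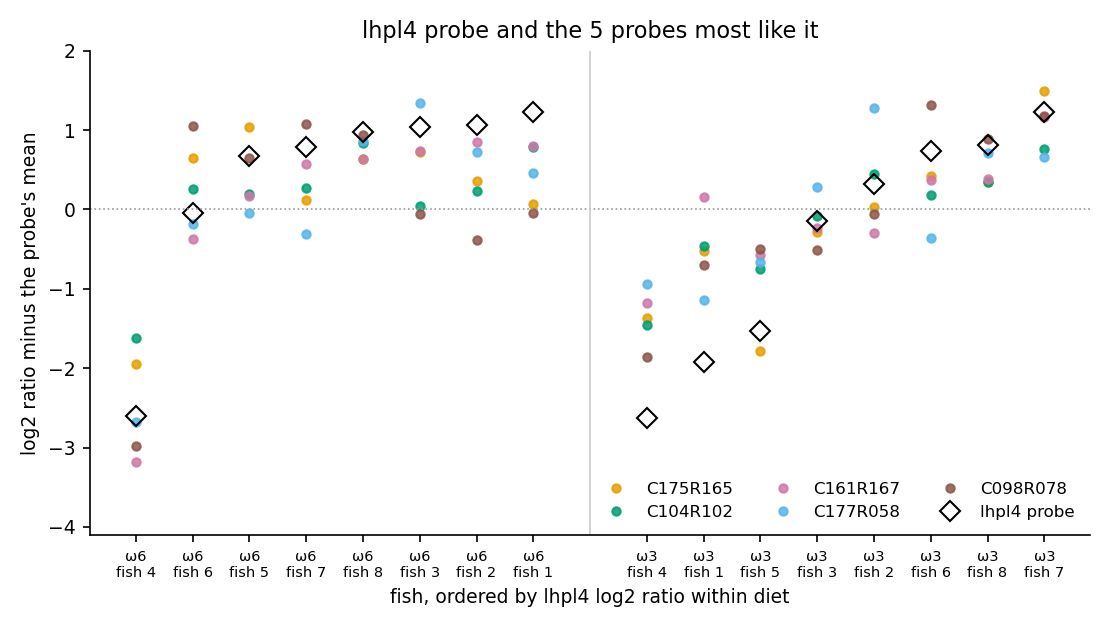
Log2 ratio minus the mean of the probe (vertical axis) for lhpl4 (open diamonds) and the 5 probes most like it (filled points) in 8 high ω6 fish at left and 8 high ω3 fish at right, ordered by the lhpl4 value within each diet. High ω6 fish 4 is lowest in all 5 probes, while in high ω3 fish 1 and 4 the 5 probes lie above lhpl4.

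The other feature that the study listed as higher in high ω6 fish, htra1b (C231R170), a secreted serine protease in mammals, was not low in the same fish only. In the 4 fish with low lhpl4, htra1b was at −4.51 in high ω6 fish 4 and at −2.71, −0.22 and −2.65 in high ω3 fish 1, 4 and 5. It was also at −2.26 in high ω6 fish 2 and −3.22 in high ω6 fish 8, where lhpl4 was at 0.97 and 0.89. Among the high ω3 fish, htra1b was at −1.75 in fish 2 and −2.08 in fish 8, where lhpl4 was at 0.23 and 0.71.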

How the data were processed

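Liver RNA of 16 salmon was measured on 16 two-colour arrays. The authors deposited the scanner output, with signal and local background intensity per spot for Cy5 and Cy3 and flags for poor spots, and no background had been subtracted from these intensity values. They also deposited log2 ratios (Cy5 over Cy3) of 10264 probes, filtered for flags and loess-normalized, which were used as an alternative. Here, flagged spots were removed, median signals were corrected with normexp (offset 50) and loess-normalized in limma 3.58.1 (R 4.3.3), and 25061 probes with unflagged spots on 12 or more of 16 arrays were analysed. The number of arrays limits the precision. Diets and fish numbers came from the labels, and tanks and slides from the names of the deposited files. Tests were a two-sided exact permutation test (threshold 0.05) and limma with Benjamini-Hochberg adjustment (threshold 0.10, as in the study), and were tested on simulated data. C187R103 and the 5 probes with the smallest root mean square difference to it are named, with htra1b beside it. The probe, the lists and the tests were chosen with earlier results of these data known. Lists of LHFPL family members, synaptic partners and cell type markers could not be used, since no table pairs probes with genes. Sequences were not used here. Alternatives were no background correction, background subtraction, median centring, mean spot signals, the deposited ratios, other flag filters, tank means, fish number, slide or tank in the model, and each fish left out. Calculations used Python 3.11.15, numpy 2.4.6, pandas 2.3.3 and matplotlib 3.10.9.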

Additional observations from a re-analysis of the deposited data

Results flagged for a closer look

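High ω6 fish 4, at −2.70, was far from the other fish of its diet, both among all 8 high ω6 fish, where the next fish was at −0.14, and among the 4 on slides 1 and 2, where the next was at 0.58. Its array also had the widest spread of log2 ratios, and the part of that spread in this value was not tested. Among the 4 high ω6 fish of slides 3 and 4, fish 6, at −0.14, was far below the next, at 0.94. No high ω3 fish stood apart in this way. Chance flags about 1 in 20 groups, and 10 overlapping groups of fish were examined. This rate does not take into account that the probe was chosen by the spread of these same values into high and low fish.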

How the results depend on the processing

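The widest inner gap parted the same fish in 7 of 7 alternatives, with a width of 1.15 to 1.49, and with each of the 16 fish left out (1.39 to 1.77). The stricter flag filter only removes other probes, so its gap stays at 1.39 by construction. Leaving out a fish that does not border the gap also leaves its width as it is. The difference between diets on slides 1 and 2 ranged from −0.89 to −0.13 over 11 alternatives, none of which passed its threshold. Its −0.13 end came from the fish number block, and the next value was −0.46 with median centring. Slide as a term and a stricter filter of other probes left the difference as it was by construction. With 1 fish left out, it ranged from −1.04 to 0.16, and the sign changed only without high ω6 fish 4. The F between slides, which uses the values that chose the probe, was 0.56 to 2.16 with 1 fish left out. It passed its threshold only with median centring (F = 3.75). The count of probes with a slide effect in limma was 211 of 24916 (0.847%), with 3678 at an unadjusted p under 0.05. It was 0 of 24916 without background correction (2804 at an unadjusted p under 0.05) and 72 of 17573 with background subtraction. It was 410 of 43689 with no filter on flags and 8932 of 24916 with median centring. With 1 fish left out, it lay between 3 of 24494 and 634 of 24699. On slides 3 and 4 the difference was 1.94 to 2.36, and over all fish 0.70 to 0.95 (0.46 to 1.21 with 1 fish left out). Same-numbered fish of both diets came from different tanks, and 4 of 8 such pairs shared a slide. Their deviations over probes correlated by 0.28 to 0.60 in these 4 pairs and by 0.086 to 0.37 in the other 4, with 7 of 8 over 0.1 and 4 of 8 best matched to their own number. As 1 pair was under 0.1, the numbers were not taken as pairs. With a fish number block, the difference on slides 1 and 2 was −0.13 and 834 of 24969 probes passed, on 1 residual degree of freedom. Only 2 numbers, 7 and 8, are shared there, and these fish were all on slide 1, so −0.13 is the difference of slide 1 alone. With this block, the difference was 1.94 on slides 3 and 4, where only fish 1 and 2 of each diet share a number. Over all fish, it was 0.78. Tank as a random block, with high ω6 fish 4 included, gave −0.86, with a tank correlation of 0.78 that rests on tanks 24 and 26.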
